A study of Mus musculus with 24 samples.

Results

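The genes of the cytosolic ribosomal proteins were followed here through H3K27ac, the acetylation of lysine 27 of histone H3, at their promoters. The members were peaks named in the deposited matrix for a symbol beginning Rpl or Rps with a digit, or for Rplp0, Rplp1, Rplp2 or Rpsa, whose nearer edge lay within 1000 bp of the transcription start site (TSS) given beside them. Pseudogenes, S6 kinases and Rpl-like or Rps-like genes were left out. The rule gave 100 peaks of 73 symbols, and after Rps19bp1, a binding partner of a ribosomal protein and not one itself, was set aside, 98 peaks of 72 genes remained out of 21488 promoter peaks of 14160 genes. All 98 passed the filter on low counts. By name 29 genes belong to the small 40S subunit, 40 to the large 60S subunit and 3 to the acidic stalk of the large subunit.

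The libraries came from neuronal nuclei, sorted for the nuclear protein NeuN, of the dentate gyrus of male C57BL/6J mice aged 12 weeks (the sample titles name the hippocampus). Mice were injected intraperitoneally with 30 mg/kg of CI-994, which blocks class I histone deacetylases (HDACi), or with its vehicle (Veh) of dimethyl sulfoxide, Kolliphor and saline, 1 h before the test. They then had contextual fear conditioning (CFC), with 3 min of habituation and 2 foot shocks of 0.2 mA, or an equally long stay in the chamber with no shock (Context), and were killed 1 h later. The 4 groups are named Veh-Context, HDACi-Context, Veh-CFC and HDACi-CFC, with 3 H3K27ac libraries in each. These groups follow the sample labels, whereas the text of the series speaks of 3 treatments with 4 replicates each. All mice of a cage went through the same protocol, so an effect of shock cannot be told apart from one of the cage. The labels do not say whether the libraries of a group came from separate animals, so p-values measure the spread between these samples, which may be technical.

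Ribosomal proteins assemble with ribosomal RNA into the 2 subunits that translate messenger RNA, and a cell needs them in nearly equal numbers. Their genes are transcribed at a high rate in almost every cell type from compact promoters rich in C and G. Many of the messages start with a run of pyrimidines, the 5' terminal oligopyrimidine tract, through which the kinase mTOR controls their translation. Lasting memory depends on new protein synthesis in neurons.

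The stretches below run from 60 bases before to 20 bases from the RefSeq start (GRCm38.p6, the assembly of mm10), in the direction of transcription. They are shown for the 4 called genes with the largest change under the drug in Context mice, and for Rps10 and Rpl7a, which were added after their values were seen because they turn up in the shock results. Capitals mark any of 5 searched motifs, on either strand, and a pyrimidine run of 5 or more that takes in the start base. The smallest changes under the drug in Context mice were those of Rpl8 and Rpl30.
Rpl10, chrX:74270756-74270835, plus strand: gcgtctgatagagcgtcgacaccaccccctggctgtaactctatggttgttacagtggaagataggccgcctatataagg
Rps6, chr4:86857348-86857427, minus strand: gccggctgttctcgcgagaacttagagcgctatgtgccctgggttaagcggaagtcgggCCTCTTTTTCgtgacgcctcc
Rpl41, chr10:128549149-128549228, minus strand: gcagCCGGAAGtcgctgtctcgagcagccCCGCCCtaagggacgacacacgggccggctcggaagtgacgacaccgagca
Rpl23, chr11:97782420-97782499, minus strand: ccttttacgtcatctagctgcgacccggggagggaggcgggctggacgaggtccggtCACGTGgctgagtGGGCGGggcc
Rps10, chr17:27635225-27635304, minus strand: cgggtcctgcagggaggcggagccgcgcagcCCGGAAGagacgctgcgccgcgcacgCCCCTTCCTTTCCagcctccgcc
Rpl7a, chr2:26910747-26910826, plus strand: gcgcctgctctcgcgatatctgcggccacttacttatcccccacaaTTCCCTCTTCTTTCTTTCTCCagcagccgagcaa

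RefSeq windows of 300 bases, 250 before and 50 from the start, were found for 54 of the 72 genes and were compared with all 32817 windows of the table. Such a run of pyrimidines lay over the start base in 16 of the 54 windows (29.6%) and in 10.1% of all windows. In the sequences above it is 10 bases long in Rps6 and 21 in Rpl7a, while the annotated starts of Rpl10, Rpl41 and Rpl23 fall on a purine. The motif CCGGAAG, the core bound by ETS factors, occurred in 22 of 54 (40.7%) against 8.86% of all windows. GGGCGG, the GC box, occurred in 32 of 54 (59.3%) against 35.6%, AAGATGG, the YY1 core, in 7 (13.0%) against 6.34%, CACGTG, an E-box, in 6 (11.1%) against 7.15%, and TATAAA in 4 (7.41%) against 13.6%. No searched motif overlaps another in the stretches shown. Of the 22 genes with CCGGAAG, 10 had lower H3K27ac under the drug in Context mice, with a median log2 change of -0.47, and of the 32 without it 9, with a median of -0.35. For CACGTG the genes lower were 3 of 6 with it (median -0.80) and 16 of 48 without it (-0.36). For GGGCGG they were 12 of 32 (-0.39) and 7 of 22 (-0.36), and for AAGATGG 3 of 7 (-0.32) and 16 of 47 (-0.39). For TATAAA they were 2 of 4 (-0.29) and 17 of 50 (-0.39), and for the pyrimidine run 7 of 16 (-0.42) and 12 of 38 (-0.36). After shock in drug-treated mice, 48.9% of all genes were called higher. The members higher were 19 of 22 with CCGGAAG and 17 of 32 without it. With the pyrimidine run they were 14 of 16, and without it 22 of 38. For GGGCGG they were 22 of 32 and 14 of 22, and for AAGATGG 5 of 7 and 31 of 47. For TATAAA they were 4 of 4 and 32 of 50, and for CACGTG 3 of 6 and 33 of 48. None of these splits was tested. A match of letters is a description and not a binding site.

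H3K27ac peaks at these genes lay around the start much as at other promoters. Of the 98 peaks, 38 ended upstream of the TSS (38.8%), 34 began downstream of it (34.7%) and 26 spanned it (26.5%), and among all promoter peaks the shares were 33.1, 39.5 and 27.5%. Upstream peaks were short: their median width was 815 bp, while downstream peaks had 2401.5 bp and spanning peaks 2948 bp. In 19 genes an upstream and a downstream peak faced each other across a gap of 345 to 1019 bp (median 522 bp), and 4388 pairs of other genes had a median gap of 602 bp. By the chromatin state deposited with each peak, 64 were strong promoters (65.3%, against 58.6% of all promoter peaks), 19 primed enhancers (19.4% against 14.1%), 8 active enhancers and 7 control regions. Where a gene had 2 peaks (26 genes), the one with the higher mean count represents it below, and 13 of the 72 representative peaks also overlapped another protein-coding gene, such as Zc3h10 at Rpl41.

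Levels are given as CPM, read counts scaled to the size of the library, and between genes as CPM per kb of peak. In Veh-Context the densest representative peaks were those of Rpl32 with 12.1 ± 2.4 CPM per kb, Rpl23 with 11.9 ± 2.2 and Rps26 with 9.35 ± 0.91 (SD, n = 3). These 3 ranges overlap from one gene to the next. The lowest were Rpl26 with 1.32 ± 0.57, Rpl36 with 1.54 ± 0.23 and Rpl37rt, a retrocopy of Rpl37, with 1.72 ± 0.20, and their ranges overlap as well. Over all 12 libraries the median of the 72 genes was 3.76 CPM per kb, beside 3.56 over 14154 genes.

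Total counts in peaks ran from 6639158 to 16734757 per library, and 18.3 to 22.4% of them lay in promoter peaks in the Context libraries against 24.8 to 26.6% in the CFC libraries. The 2 ranges do not overlap. Within the Context libraries the share was 21.4 to 22.4% in Veh-Context and 18.3 to 19.6% in HDACi-Context, again without overlap. Within the CFC libraries it was 24.8 to 26.6% in Veh-CFC and 25.1 to 25.3% in HDACi-CFC, which overlap. No spike-in was named, so the changes below are relative ones within the scaled libraries, and in bulk nuclei fewer cells with the mark cannot be told apart from less of it per cell. The 4 neuronal markers all had promoter peaks, and their summed CPM per kb was 24.3 to 26.0 in Veh-Context, 20.2 to 21.5 in HDACi-Context, 23.2 to 29.2 in Veh-CFC and 25.0 to 27.4 in HDACi-CFC. The sum of 4 of 4 markers of dentate granule neurons, the main neurons of this tissue, was 16.6 to 18.2, 13.2 to 15.8, 21.2 to 22.1 and 18.2 to 24.0 in that order. Oligodendrocyte markers also had peaks in these sorted nuclei, and the sum of all 5 was 10.9 to 12.2 in Veh-Context, 8.13 to 9.64 in HDACi-Context, 14.3 to 20.3 in Veh-CFC and 13.4 to 15.9 in HDACi-CFC. In the same order, the sum of 4 of 4 markers of oligodendrocyte precursors was 5.71 to 6.70, 4.93 to 5.49, 7.63 to 14.6 and 10.8 to 13.2, that of 3 of 4 astrocyte markers (without Aqp4) 7.51 to 10.4, 7.03 to 7.36, 9.49 to 12.8 and 10.2 to 11.2, and that of 3 of 5 microglial markers (without Aif1 and C1qa) 7.37 to 8.72, 5.68 to 6.58, 8.15 to 13.1 and 7.21 to 8.55. No endothelial marker of 4 had a promoter peak. The part of these differences in the results below was not tested.

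Under CI-994 without shock, H3K27ac fell at 24 of the 72 ribosomal protein genes and rose at none (edgeR quasi-likelihood F test, Benjamini-Hochberg adjusted p under 0.05). Among all genes with a promoter peak, 24.2% were called lower and 1.06% higher. At an unadjusted p under 0.05, edgeR gave 1 member higher and 40 lower, against 506 and 5771 of all 14154 genes. DESeq2 gave 0 and 19 members after adjustment, against 92 and 2757 of all genes. The members' median log2 change was -0.39 and that of all genes -0.31. With scaling factors taken from promoter peaks alone, which put the median of all genes at -0.01, 12 members were lower and 4 higher, against 1503 and 1400 of all genes. By subunit, 10 of 29 genes of the small subunit, 12 of 40 of the large subunit and 2 of 3 of the stalk fell. Among members whose peak carries the state strong promoter, 21 of 44 fell, against 31.4% of all genes with that state. Without Veh-Context replicate 3, the number of members that fell was 14, and that of all genes was 1714, against 3432 in the main fit.

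Rpl10, a late-joining 60S protein next to the catalytic centre, had the largest drop. Its peak at chrX:74269203-74272090, which spans the TSS, had 21.8, 19.7 and 20.5 CPM in the Veh-Context libraries and 7.72, 6.55 and 7.55 in HDACi-Context. The groups do not overlap, and the log2 change was -1.51 ± 0.14 (SE; edgeR adjusted p = 4.1e-10), or 2.86-fold lower. Rps6, the 40S protein phosphorylated by S6 kinases, is covered by an upstream peak at chr4:86857427-86859071, which adjoins the 5' end of the stretch shown above. It had 13.1, 13.5 and 15.1 CPM in Veh-Context and 6.95, 4.93 and 4.35 in HDACi-Context. Every drug library lay under every vehicle library, with a log2 change of -1.37 ± 0.16 (edgeR adjusted p = 1.34e-07).

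Rpl41, the gene of the smallest ribosomal protein, fell from 7.84, 6.92 and 9.70 CPM to 3.82, 3.71 and 2.52 (log2 change -1.30 ± 0.19, edgeR adjusted p = 6.2e-06). Rpl23, a 60S protein that also binds Mdm2, fell from 9.26, 7.36 and 10.7 CPM to 4.17, 3.83 and 4.08 (-1.20 ± 0.18, edgeR adjusted p = 1.35e-05). In neither gene did the groups overlap. Among the other 4 of the 8 largest drops, the log2 change was -1.18 ± 0.32 for Rpl13a, -1.11 ± 0.21 for Rpl32, -1.07 ± 0.34 for Rps21 and -1.02 ± 0.19 for Rpl18. Rps21 is the one whose groups overlap, with 1.79, 1.18 and 3.16 CPM against 1.18, 1.39 and 0.476, and its call was lost in 7 of 21 alternatives. The remaining 16 genes fell by 0.46 to 0.99 on the log2 scale.

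Among the genes always followed, both Rplp1 and Rplp2, whose acidic proteins recruit elongation factors to the stalk, fell, with log2 changes of -0.73 ± 0.18 and -0.48 ± 0.15. Rplp0, which anchors them to the ribosome, had 6.12, 5.15 and 5.44 CPM in Veh-Context and 5.70, 5.56 and 4.83 in HDACi-Context, a log2 change of -0.07 ± 0.18 that did not pass. The X-linked Rpl36a (-0.76 ± 0.17) and Rpl39, a protein of the exit tunnel (-0.46 ± 0.15), fell, whereas the X-linked Rps4x had -0.46 ± 0.17 with an edgeR adjusted p of 0.078. The call of Rpl39 was lost in 15 of 23 alternatives, DESeq2 and the replicate block among them, with a log2 change as small as -0.16, and that of Rplp2 in 7 of 23. Rps27a, made as a fusion to ubiquitin, fell by 0.52 on the log2 scale. Rpl5 and Rpl11, which bind 5S ribosomal RNA and can stabilise p53, did not pass, at -0.07 ± 0.15 and -0.15 ± 0.14, nor did Rps19, a gene mutated in Diamond-Blackfan anaemia, at -0.27 ± 0.13, Rpsa at -0.48 ± 0.19, and Rpl22 at -0.17 ± 0.19.

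**Figure D1:**
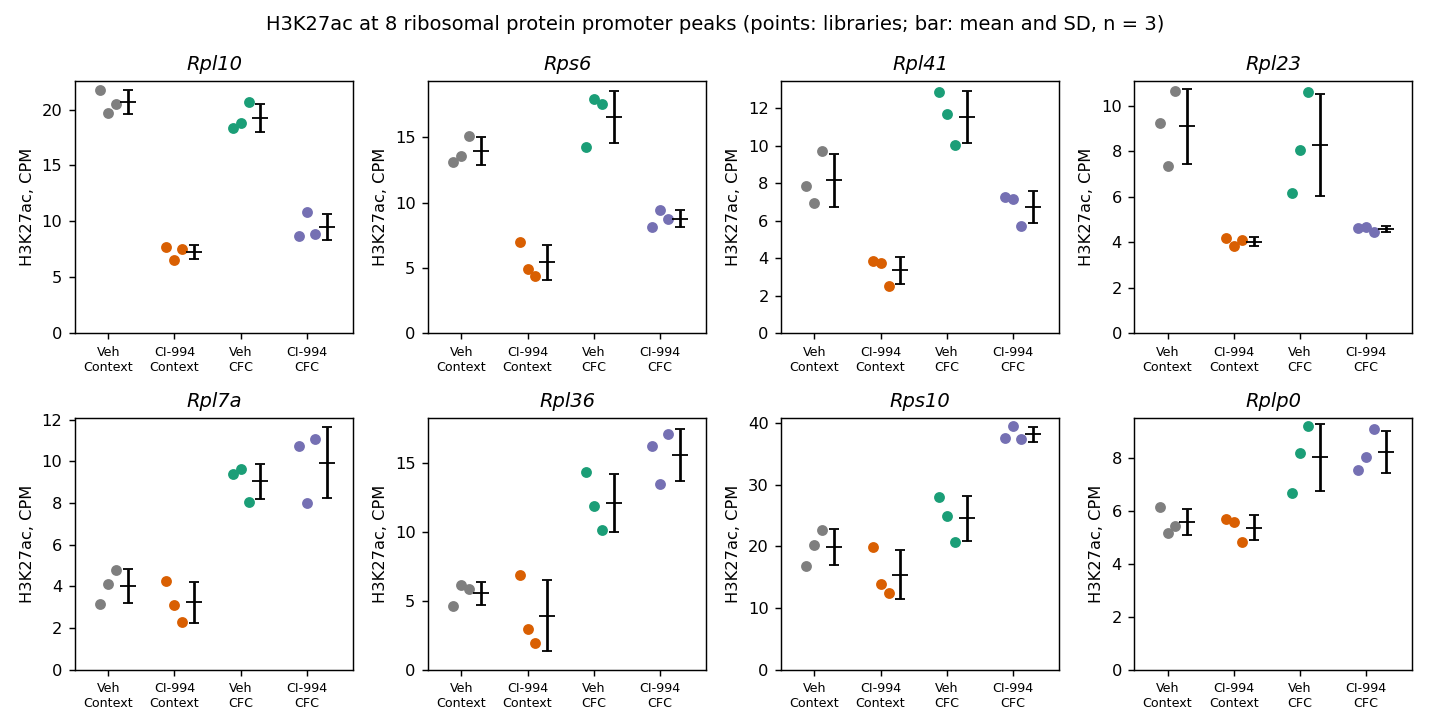
H3K27ac in CPM (y axis, from 0) at the representative promoter peak of 8 ribosomal protein genes in the 4 groups (CI-994 marks the HDACi groups); points are libraries and bars the mean and SD (n = 3). In Rpl10 and Rps6 all 6 CI-994 libraries lie below all 6 vehicle libraries, whereas Rpl7a and Rpl36 are higher in the CFC groups.

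The called drops differed in number with the position of the peak. Of the 26 spanning peaks 16 were lower under the drug in Context mice, against 34.4% of all spanning promoter peaks, and of the 38 upstream peaks 15, against 19.6%. Of the 34 downstream peaks 2 were lower, against 13.6%. The members' median log2 changes were -0.54, -0.48 and -0.17 in that order, and those of all promoter peaks -0.39, -0.30 and -0.25. Position and width go together here, and across the 72 genes the change had a Spearman rho of 0.36 with peak width and -0.41 with CPM per kb over all libraries, given as a description since the same counts enter level and change.

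Counting either peak, 32 of the 72 genes had at least 1 promoter peak that fell, against 30.0% of all genes. The 8 genes added in this way, Rpl14, Rpl21, Rpl22, Rpl29, Rpl30, Rpl37a, Rps7 and Rps19, have a representative peak that did not change by the test and a smaller second one that did. At Rpl21 the peak of 996 bp over the TSS had a log2 change of -1.16 ± 0.18 and the 9757 bp peak after it 0.14 ± 0.11. At Rps19 the upstream peak had -1.29 ± 0.25 and the downstream peak -0.27 ± 0.13, and at Rps7 the values were -1.23 ± 0.35 and 0.19 ± 0.13. At Rps6 the downstream peak had 6.20, 7.36 and 6.17 CPM in Veh-Context and 6.40, 7.07 and 6.94 in HDACi-Context, groups that overlap, while the upstream peak fell by 1.37 on the log2 scale. Over the 19 facing pairs the downstream peak had the higher log2 change in 12, and over 4388 pairs of other genes in 56.3%.

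**Figure D2:**
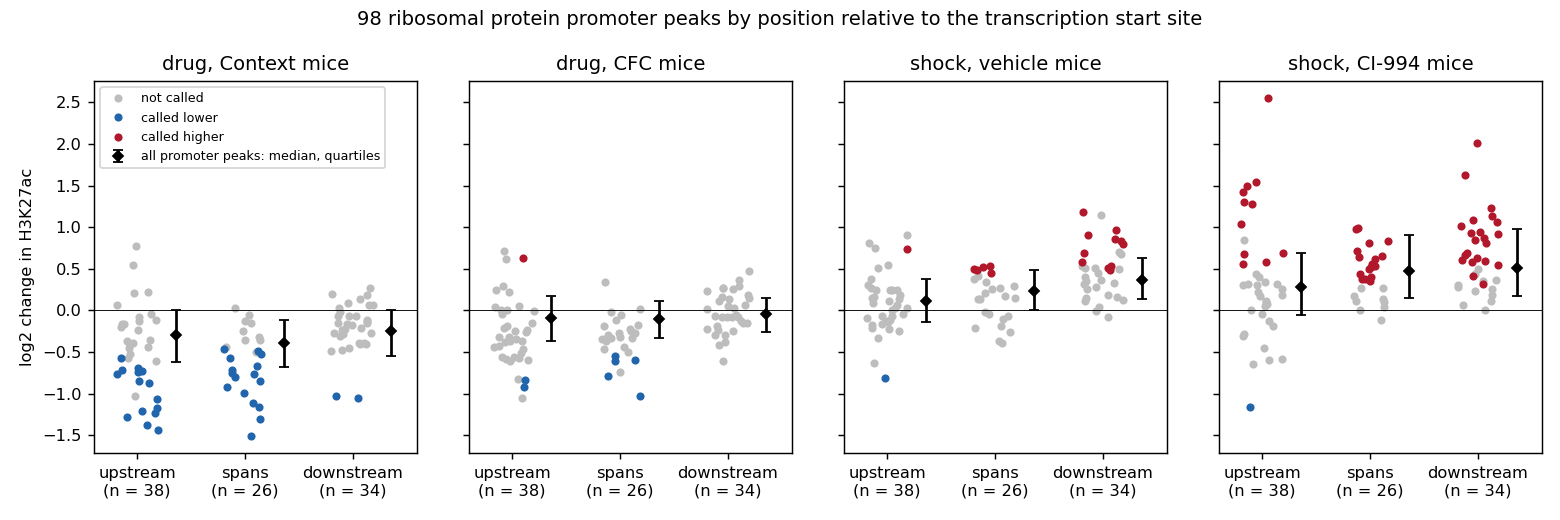
Log2 change in H3K27ac (y axis) of the 98 ribosomal protein promoter peaks by position (x axis) in 4 comparisons; each point is a peak, blue or red where called lower or higher, and diamonds with bars give the median and quartiles of all promoter peaks. Called drops under the drug lie mostly in upstream and spanning peaks, and called rises after shock in vehicle mice mostly in downstream peaks.

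In mice that were shocked, H3K27ac was lower under the drug at 7 of the 72 genes and higher at Rps10. Of all genes, 2.7% were called lower and 0.742% higher. The median log2 change was -0.23 for the members and -0.08 for all genes. Among the lower genes were Rpl10, Rps6, Rpl23, Rpl41, Rps26 and Rpl19. All 7 are among the 24 that fell in Context mice, a comparison with no library in common (100% of the 7 and 29.2% of the 24). Both comparisons use a spread estimated over all libraries, and the same overlap over all genes was not counted. Counting either peak of a gene also gave 7 lower and 1 higher, against 3.22% and 0.968% of all genes. All 7 carry the state strong promoter, where 7 of 44 members fell against 4.39% of all genes. With promoter-based factors 4 members were lower and 1 higher, against 210 and 170 of all genes.

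Rpl10 had 18.4, 18.8 and 20.7 CPM in Veh-CFC and 8.69, 10.8 and 8.91 in HDACi-CFC, again without overlap. The log2 change was -1.03 ± 0.14 (edgeR adjusted p = 0.000164). Rps6 went from 14.3, 17.9 and 17.6 CPM to 8.11, 9.46 and 8.74 (-0.93 ± 0.16, edgeR adjusted p = 0.00154). The log2 change was -0.84 ± 0.20 in Rpl23, -0.78 ± 0.18 in Rpl41, -0.60 ± 0.15 in Rps26, a 40S protein at the mRNA exit, and -0.54 ± 0.14 in Rpl19. The call was lost in 11 of 23 alternatives for Rpl19 and 9 of 23 for Rps26, DESeq2 and promoter-based factors among them. It was lost in 5 of 22 for Rpl23 and 4 of 23 for Rpl41. By position, 5 of 26 spanning peaks were lower against 3.95% of all such peaks, 2 of 38 upstream peaks against 2.16%, and 0 of 34 downstream peaks against 0.85%. The number of lower members was 2 without Veh-CFC replicate 2, HDACi-CFC replicate 1 or HDACi-CFC replicate 3, 3 without HDACi-CFC replicate 2 and 4 without Veh-CFC replicate 3. In these runs, in the same order, 77, 105, 57, 121 and 199 of all genes were lower, against 382 in the main fit. Rpl10 and Rps6 passed in every alternative run, in both behaviours.

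**Figure D3:**
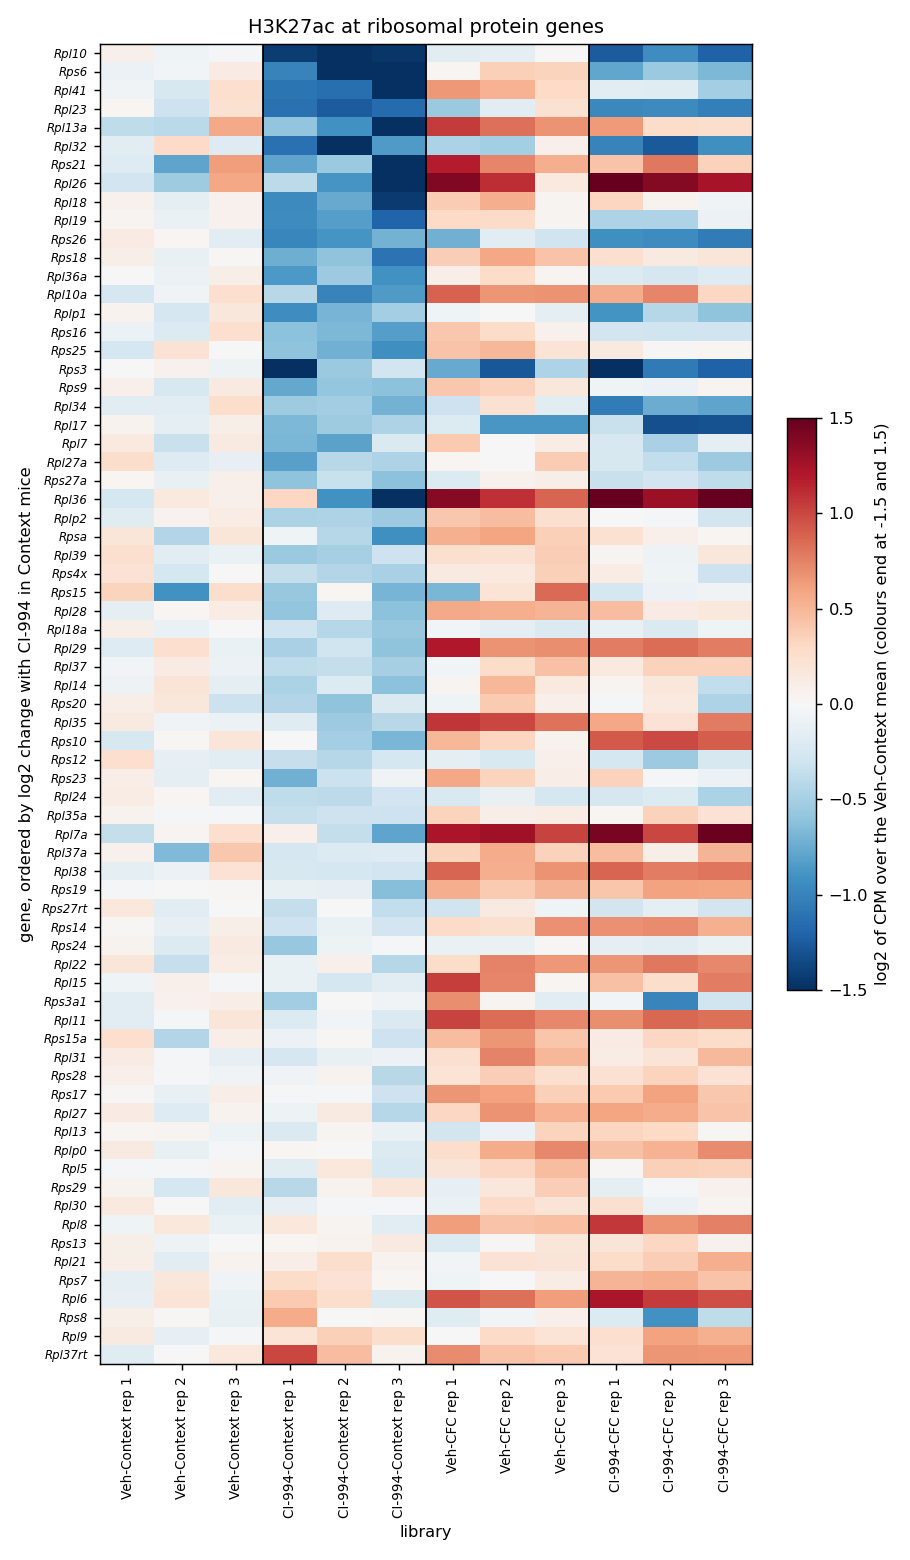
Log2 of CPM over the gene's Veh-Context mean (colour) for ribosomal protein genes (rows, ordered by the log2 change with the drug in Context mice) in 12 libraries (columns, 3 per group). The upper rows are blue in the HDACi-Context libraries and, for Rpl10, Rps6, Rpl23 and a few others, also in HDACi-CFC, and many rows are red in the CFC libraries.

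After foot shock in vehicle mice, H3K27ac rose at 15 of the 72 genes and fell at Rps3. Over all genes 16.4% were called higher and 0.487% lower, and the members' share of rises, 20.8%, was near that background. The medians were 0.27 for the members and 0.26 for all genes. With promoter-based factors 8 members were higher and 4 lower, against 983 and 748 of all genes. Without Veh-Context replicate 1 the number of rises was 7, against 642 of all genes. Without Veh-CFC replicate 1 it was also 7, against 628 of all genes. In the main fit 2318 of all genes rose, so the number of calls fell among all genes as well. Counting either peak, 17 genes rose and 1 fell, against 19.7% and 0.699% of all genes.

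Rpl7a, a 60S protein whose introns hold small nucleolar RNAs, rose most. It had 3.14, 4.12 and 4.78 CPM in Veh-Context and 9.38, 9.65 and 8.07 in Veh-CFC, groups far apart (log2 change 1.18 ± 0.21, edgeR adjusted p = 0.00082). Next came Rpl35 (0.96 ± 0.19), Rpl29 (0.91 ± 0.19), Rpl11 (0.86 ± 0.14), Rpl6 (0.83 ± 0.17), Rpl10a (0.74 ± 0.16), Rpl38 (0.69 ± 0.13), known for its part in the translation of Hox messages, and Rpl28 (0.54 ± 0.16). Of these 8, all encode 60S proteins, and Rps19, in the 40S subunit, rose by 0.48 ± 0.13. Rps3, at the mRNA entry of the small subunit, fell from 5.67, 5.89 and 5.37 CPM to 3.34, 2.33 and 4.11 (-0.81 ± 0.26, edgeR adjusted p = 0.0448), a call that was lost in 10 of 21 alternatives.

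Most of the called rises lay on the gene side of the start. In vehicle mice 11 of 34 downstream peaks rose, against 19.6% of all such peaks, 5 of 26 spanning peaks against 16.5%, and 1 of 38 upstream peaks against 5.68%. In 16 of the 19 facing pairs the downstream peak had the higher log2 change, with a median difference of 0.49, and among other genes this was so in 74.8% of pairs, with a median difference of 0.30. At Rpl11 the downstream peak rose by 0.86 ± 0.14 and the upstream peak had 0.07 ± 0.37, and at Rpl29 the downstream peak rose by 0.91 ± 0.19 while the peak over the TSS had -0.04 ± 0.21.

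**Figure D4:**
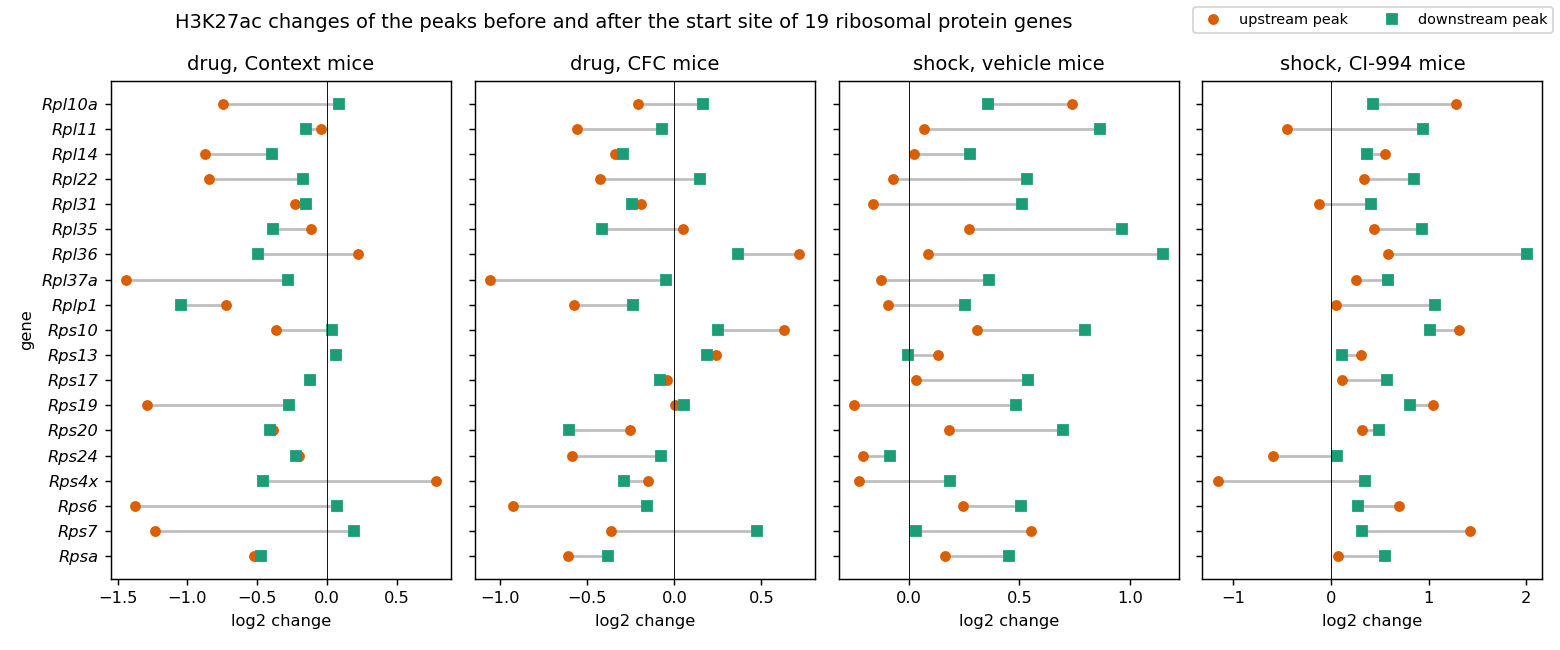
Log2 change (x axis) of the upstream peak (circle) and the downstream peak (square) of the 19 ribosomal protein genes with 1 of each (rows) in 4 comparisons. After shock in vehicle mice the square lies to the right of the circle in 16 of 19 genes; under the drug in Context mice it does so in 12.

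In drug-treated mice, shock was followed by higher H3K27ac at 42 of 72 genes and lower at none by edgeR. Of all genes 48.9% were called higher and 2.07% lower, and the medians were 0.43 for members and 0.44 for all genes. At an unadjusted p under 0.05 edgeR gave 2 members lower, against 444 of all genes. DESeq2 gave 0 members lower after adjustment, against 123 of all genes. With promoter-based factors 18 members were higher and 16 lower, against 2993 and 3190 of all genes. By subunit 15 of 29 genes of the small subunit, 25 of 40 of the large subunit and 2 of 3 of the stalk rose. All 15 genes that rose in vehicle mice are among the 42 (100% of the 15 and 35.7% of the 42). The comparisons share no library, but the spread was again estimated over all libraries, and this overlap too was not counted over all genes. Counting either peak, 44 genes rose and 1 had a peak that fell, against 55.9% and 2.96% of all genes.

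Rpl36, a 60S protein, had 6.88, 2.96 and 1.97 CPM in HDACi-Context and 16.2, 13.5 and 17.1 in HDACi-CFC, with a log2 change of 2.01 ± 0.30 (edgeR adjusted p = 0.000247). The first of its Context libraries was higher than the other two, but below all CFC libraries. Rpl7a went from 4.24, 3.13 and 2.31 CPM to 10.7, 8.01 and 11.1 (1.63 ± 0.19, edgeR adjusted p = 9.03e-09). Rpl26 had the largest fitted change, 2.55 ± 0.48, on counts of only 2 to 7 in HDACi-Context and 16 to 36 in HDACi-CFC. The rest of the 8 largest rises were Rpl13a (1.54 ± 0.30), Rps21 (1.50 ± 0.32), Rps10 (1.31 ± 0.14), Rpl10a (1.28 ± 0.16) and Rpl29 (1.24 ± 0.18).

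In this comparison Rplp0 rose by 0.61 ± 0.17, Rpl22 by 0.85 ± 0.18, Rpl11 by 0.94 ± 0.13, Rps19 by 0.81 ± 0.13 and Rpsa by 0.55 ± 0.19. Rps6 rose by 0.69 ± 0.17 and Rpl10 by 0.38 ± 0.15, which became -0.12 with promoter-based factors. With those factors the calls of Rps6 (0.20), Rplp0 (0.11), Rpl22 (0.35) and Rpsa (0.055) were lost as well, and those of Rpl11 (0.44) and Rps19 (0.31) passed. Rpl5 (0.30 ± 0.15), Rps4x (0.35 ± 0.17) and Rps27a (0.17 ± 0.13) did not pass. Of the second peaks, the one upstream of Rps4x was lower in HDACi-CFC, at -1.16 ± 0.40. By position 22 of 34 downstream peaks rose against 50.7% of all such peaks, 17 of 26 spanning peaks against 54.6%, and 11 of 38 upstream peaks against 31.2%.

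**Figure D5:**
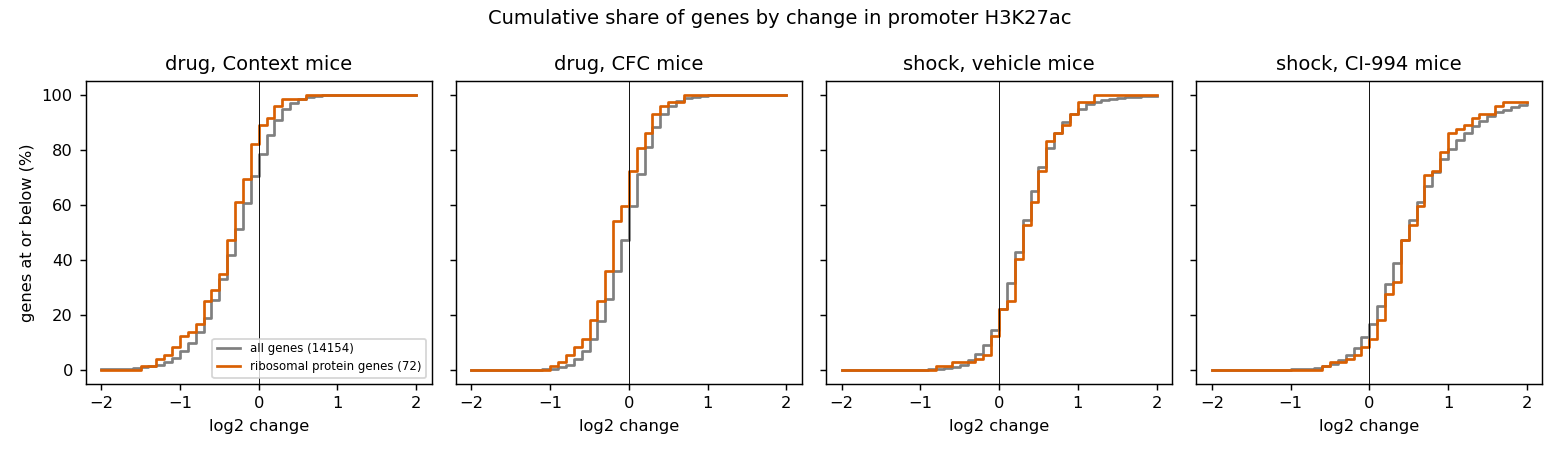
Cumulative percent of genes (y axis) at or below each log2 change in promoter H3K27ac (x axis, in steps of 0.1) for 72 ribosomal protein genes and all genes tested, in 4 comparisons. The curves of the shock comparisons nearly coincide, with medians of 0.27 and 0.26 in vehicle mice, and under the drug in CFC mice the members' curve lies to the left, with medians of -0.23 and -0.08.

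Averaged over both behaviours, the drug lowered H3K27ac at 29 members and raised it at 2, Rps7 and Rpl9, against 24.7% lower and 2.7% higher among all genes. The direction at Rps7 depends on the peak: the downstream one had 0.33 ± 0.09 and the upstream one, nearer to the TSS, -0.80 ± 0.23. Rpl10, Rps6, Rpl41, Rpl23, Rpl32, Rpl13a, Rpl19 and Rps26 had the largest drops. Averaged over both treatments, shock raised it at 43 and lowered it at Rps3, against 52.1% and 3.22%. With promoter-based factors these splits became 19 lower with 7 higher for the drug, against 1791 and 1373 of all genes, and 19 higher with 16 lower for shock, against 3261 and 3264. All 98 peaks of the 72 genes together took a share of each library's counts in promoter peaks. It was 0.401 to 0.421% in Veh-Context, 0.380 to 0.390% in HDACi-Context, 0.394 to 0.415% in Veh-CFC and 0.374 to 0.383% in HDACi-CFC. Within each behaviour the drug libraries lay below the vehicle libraries in this share.

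The drug effect differed between the behaviours at 1 member, Rps10, a 40S protein near the mRNA entry. Among all genes 0.17% had a higher and 0.0% a lower drug effect in CFC than in Context. The upstream peak of Rps10, chr17:27635471-27640082, is 4612 bp long, carries the state active enhancer and lies partly over the long noncoding RNA gene Gm15420. It had 16.9, 20.2 and 22.6 CPM in Veh-Context, 20.0, 13.9 and 12.4 in HDACi-Context, 28.0, 24.9 and 20.7 in Veh-CFC and 37.6, 39.4 and 37.3 in HDACi-CFC. The HDACi-CFC libraries stand above all others. Veh-Context overlaps with HDACi-Context and with Veh-CFC, while all HDACi-Context libraries lie below all Veh-CFC libraries. The interaction was 1.00 ± 0.20 on the log2 scale (edgeR adjusted p = 0.041), made of -0.37 ± 0.15 in Context and 0.63 ± 0.14 in CFC, and the call was lost in 13 of 21 alternatives. The downstream peak had an interaction of 0.22 ± 0.23.

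The genes that build and serve ribosomes were counted in the same way. In Context mice under the drug, where 24.2% of all genes were lower with a median of -0.31, 22 of 49 ribosome assembly genes were lower (44.9%), with a median of -0.60, led by Imp4 (-1.64 ± 0.24), Nop56 (-1.50 ± 0.26), a box C/D snoRNP core protein, and Mdn1 (-1.33 ± 0.24), a remodelling ATPase of the pre-60S particle. Of 46 translation factor genes 13 were lower (28.3%), led by Eif3b (-1.16 ± 0.14), and of 70 mitochondrial ribosomal protein genes 29 were lower (41.4%), with a median of -0.52. Of 19 regulators 3 were lower (15.8%): Tsc1 (-1.44 ± 0.18), which restrains mTOR, Mycn (-1.17 ± 0.24) and Rptor (-0.62 ± 0.15), the mTOR complex subunit that recruits its substrates. In CFC mice under the drug 4, 1, 3 and 0 genes of the assembly, factor, mitochondrial and regulator lists were lower, or 8.16, 2.17, 4.29 and 0% against 2.7% of all genes, and none was higher. After shock in vehicle mice 8, 8, 10 and 3 rose, or 16.3, 17.4, 14.3 and 15.8%, near the 16.4% of all genes, with Mycn at 1.30 ± 0.21. In drug-treated mice 21, 22, 30 and 8 rose, or 42.9, 47.8, 42.9 and 42.1%, all under the 48.9% of all genes, with Mycn at 2.32 ± 0.22.

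Some ribosomal protein genes could not be counted because the matrix names their peaks for another gene. For example, the peaks over Rps2, Rpl3, Rpl4, Rpl12 and Rpl23a are named for Ndufb10 or for small nucleolar RNAs that lie in or near the gene, and the row named Rps27rt lies over Rps27. In Context mice under the drug, the peak over Rpl3 fell by 0.56 on the log2 scale (SE 0.11), and the broadest peak over each of the 4 others did not pass. A short peak over Rps2, named for Snora78, fell by 1.74 (SE 0.54). In drug-treated mice after shock a peak lying wholly within Rpl12 rose by 2.11 ± 0.26, and a broader one that overlaps the gene in part rose by 0.60 ± 0.19. Of the member genes, 32 have a further peak within 1 kb that carries another gene's name. Ribosomal protein genes also have many near-identical processed copies, and how reads that match several places were counted is not given in the sources used here.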

How the data were processed

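H3K27ac ChIP-seq was read from 1 matrix of 144154 peaks by 12 libraries, in which the authors deposited raw read counts per peak with the nearest gene, its TSS and a chromatin state. The column names give no antibody and were taken as the H3K27ac libraries, 3 per group, and the 12 input samples were not analysed here. The build mm10 and the tools DiffBind 2.16.2, DESeq2 1.28.1, MACS2, HOMER 4.11, Trimmomatic 0.38, SAMtools 1.9 and Bowtie2 2.3.5 are named per the submitters' processing notes, without their roles, and whether peaks were called per sample or on pooled samples is not given in the sources used here. Total counts were 6639158 to 16734757 per library, and the counts of member peaks were 2 to 986.

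Counts were fitted with edgeR 4.0.16 in R 4.3.3 (TMM factors, filterByExpr with a minimum count of 10, robust quasi-likelihood F test, 1 term per group), with Benjamini-Hochberg adjustment over all 144014 peaks kept and a threshold of 0.05. Tested on simulated data, the fit missed part of the changed peaks, and the share of false calls was above the nominal one. Values are TMM-scaled CPM with SD, and log2 changes with SE. A gene was represented by the peak within 1000 bp of its TSS with the highest mean count. Named were the 8 called members with the largest changes each way, 14 members always followed, the 3 densest and 3 least dense, members with 2 peaks or another state than strong promoter, and up to 3 genes per related list. Members and lists were chosen with earlier results of these data known. Promoter sequences came from RefSeq (GRCm38.p6). Replicate numbers were not used to pair the samples in the main fit. Some member values are not reported here.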

Additional observations from a re-analysis of the deposited data

Results flagged for a closer look

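Rps10 was the 1 member whose drug effect differed between the behaviours by a test of the difference itself. Its log2 drug effect was higher in CFC than in Context mice by 1.00 ± 0.20 (edgeR adjusted p = 0.041), with a range of 0.76 to 1.22 over 21 alternatives and an adjusted p of up to 0.341. All 3 HDACi-CFC libraries, with 37.3 to 39.4 CPM, lay above the other 9 libraries, with 12.4 to 28.0 CPM.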

How the results depend on the processing

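Of 346 alternative counts of members, 265 stayed within 1.5 times the reported count, and of 1876 alternative gene values 1672 kept direction and side of the threshold, 192 lost the call and 12 changed sign. With factors from promoter peaks the drug gave 4 higher and 12 lower members in Context mice, 4 lower in CFC mice, and 7 higher and 19 lower over both. With the same factors shock gave 8 higher and 4 lower in vehicle mice, 18 and 16 in drug-treated mice, and 19 and 16 over both. Library totals gave 2 lower after shock in drug-treated mice and 3 lower over both treatments. Loess offsets gave 2 higher for the drug in Context mice, 0 higher in CFC mice, and for shock 0 lower in vehicle mice and 2 lower over both. A minimum mean count of 50 gave 2 higher for the drug in CFC mice, and 0 lower for shock in vehicle mice and over both, and DESeq2 gave 0 lower in vehicle mice. Peaks spanning the TSS alone, of 26 genes in place of 72, gave 0 higher for the drug in CFC mice, and 0 higher and 17 lower over both. Of all spanning promoter peaks 33.8% were lower for the drug over both. For shock the 26 gave 5 higher and 0 lower in vehicle mice, 17 higher in drug-treated mice, and 15 higher and 0 lower over both. Of all spanning promoter peaks 16.5, 54.6 and 55.2% were higher for shock, in that order. The peak nearest to the TSS gave 8 higher for shock in vehicle mice, 1 lower in drug-treated mice, and 1 higher for the drug over both. The interaction had 0 members under library totals, promoter factors, loess offsets, the minimum of 50 and spanning peaks. Signs changed with the nearest peak in Rpl29 (-0.038, also with spanning peaks) and Rps19 (-0.25) for shock in vehicle mice, in Rpl11 for shock in drug-treated mice (-0.45) and over both treatments (-0.19), and in Rps7 (-0.80) and Rps4x (0.31) for the drug over both, since another peak then stands for the gene. With promoter factors they changed for shock in Rplp2 (-0.10), Rpl10 (-0.12) and Rpl39 (-0.0024) in drug-treated mice, and in Rpl36a (-0.035) and Rpl5 (-0.060) over both. The cause of the other differences was not tested. Leaving out 1 library at a time gave, for the drug, 14 to 26 lower and 0 to 0 higher in Context mice, 2 to 7 lower and 0 to 2 higher in CFC mice, and 21 to 28 lower and 1 to 2 higher over both. For shock it gave 7 to 18 higher and 0 to 1 lower in vehicle mice, 36 to 44 higher and 0 to 1 lower in drug-treated mice, and 40 to 44 higher and 1 to 2 lower over both, and for the interaction 0 to 2 higher. Over all genes the same runs gave 1714 to 3968 lower for the drug in Context mice and 57 to 524 lower in CFC mice. For shock they gave 628 to 2908 higher in vehicle mice and 5928 to 7150 higher in drug-treated mice. With a replicate block, 23 members were lower and 0 higher for the drug in Context mice, 7 lower and 1 higher in CFC mice, 16 higher for shock in vehicle mice and 43 in drug-treated mice, and 1 had an interaction. Of 18 correlations between same-numbered libraries, 3 exceeded 0.1 (range -0.36 to 0.37) and 6 of 18 were the best match. With 3 libraries per group, these values cannot decide whether the replicate numbers mark a pairing or a batch. Chosen after seeing the data, adding Rps19bp1 left 24 lower for the drug in Context mice, and adding the 6 genes named otherwise in the matrix gave 26. With 3 libraries per group and counts down to 2, small changes at short peaks were not detectable at this depth.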
